A study of Mus musculus with 4 samples.

Results

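The cytosolic ribosome is built from ribosomal RNA and one copy of most of its proteins, and the genes described here are those that encode these proteins in the mouse. They were chosen by gene symbol, as Rpl and Rplp genes for the large subunit and Rps genes, Rpsa and Fau for the small subunit, with the most abundant listed transcript kept for each gene. This gave 84 genes of the 25796 in the deposited table, 50 of the large and 34 of the small subunit. They had 148 of the 87526 listed transcripts. Rpl7l1, a biogenesis factor, and names marked as pseudogenes were left out by the rule. Rps4l, listed by RefSeq type as a transcribed pseudogene, and the low genes Rpl10l, Rpl3l, Rpl22l1 and Rpl32l were kept by it. Apart from the low genes, 80 genes had a mean of at least 500 normalised reads, 46 of the large and 34 of the small subunit. Rps4l was among the latter.

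The large subunit joins amino acids and holds the tunnel through which the new protein leaves, while the small subunit binds the mRNA and reads its codons. Most ribosomal protein mRNAs start with a C followed by a run of pyrimidines, the terminal oligopyrimidine (TOP) tract. Through it the kinase mTOR and the RNA-binding protein Larp1 control their translation and stability together. In the colon, the dividing cells of the crypt base make the most ribosomes. Ythdf1 is a cytoplasmic protein that binds mRNA carrying N6-methyladenosine (m6A) and is known mainly for promoting its translation.

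The 4 libraries were the inputs of an m6A immunoprecipitation, that is total RNA not enriched with the antibody, and the immunoprecipitated RNA was not analysed here. The RNA came from epithelial cells of mouse colon, released with EDTA, DTT and a ROCK inhibitor. The genotype labels gave 2 libraries as WT and 2 as Ythdf1 KO. The design sets these input libraries of the 2 genotypes against each other. The labels say neither how the knockout was made nor which part of the gene was altered, and give no strain, age or sex of the mice. Whether each library is a different animal is not stated, so any p-value here reflects the spread between these samples alone, and that spread may be technical.

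Ythdf1 itself went against the label. Its normalised read counts were 1088 and 775.4 for WT 1 and WT 2, while labelled KO 1 and KO 2 had 1752 and 1737. The log2 difference was 0.925 ± 0.278 (SE), with a limma-trend adjusted p of 0.759. The authors' deposited table gave a log2 fold change of 0.906 with a q-value of 0.0145. Each direction below therefore follows the labels, not a checked genotype, and the second group is called the KO-labelled libraries. Reads on the most abundant transcripts numbered 21686140 to 30951138 per library, lowest in WT 1 and highest in labelled KO 2. All 12 colon epithelium markers were detected in every library, with summed values of 992182 to 1041853 in WT and 853522 to 1094326 in the other group. Leukocyte markers summed to 1210 to 1555 in WT and 656.8 to 966.6 in the KO-labelled libraries, stroma and muscle markers to 1690 to 3363 and 1359 to 2092, those of endothelium and nerve to 401.3 to 613.8 and 266.3 to 612.7, and erythroid markers to 127.4 to 170.6 and 82.41 to 218.4. In bulk RNA, fewer cells of a type and less RNA per cell cannot be told apart.

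Sequence around the annotated start of these genes is shown first, because the TOP tract is the feature the family is known to share. A RefSeq window (assembly GRCm38.p6) was matched for 63 of the 84 genes by gene ID, chromosome and strand. Each window below has 15 bases before the annotated start and 15 from it on, 5′ to 3′ on the gene's strand. Capitals mark the pyrimidine tract that begins at the start with a C. The first 8 genes have this start and the last 3 do not.
Rps6 (chr4:86857353-86857382, minus strand): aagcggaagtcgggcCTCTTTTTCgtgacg
Fau (chr19:6057932-6057961, plus strand): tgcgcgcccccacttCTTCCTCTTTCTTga
Rps10 (chr17:27635230-27635259, minus strand): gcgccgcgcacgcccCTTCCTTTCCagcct
Rps27 (chr3:90213634-90213663, minus strand): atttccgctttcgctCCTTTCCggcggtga
Rplp2 (chr7:141447636-141447665, plus strand): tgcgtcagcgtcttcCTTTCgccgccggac
Rpl14 (chr9:120571502-120571531, plus strand): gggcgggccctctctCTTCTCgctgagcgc
Rpl15 (chr14:18270972-18271001, minus strand): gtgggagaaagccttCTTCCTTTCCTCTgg
Rpl35 (chr2:39005117-39005146, minus strand): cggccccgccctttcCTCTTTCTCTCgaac
Rpl12 (chr2:32961697-32961726, plus strand): ggcggagcaggatccgtcttttcggctttc
Rpl26 (chr11:68901551-68901580, plus strand): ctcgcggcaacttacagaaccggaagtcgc
Rpl39 (chrX:37085208-37085237, minus strand): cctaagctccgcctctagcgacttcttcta

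A C followed by at least 4 pyrimidines stood exactly at the annotated start of 15 of the 63 genes, or 23.8%. It stood there in 8 of 38 large and 7 of 25 small subunit genes. Among all 19326 genes with a window, 2.52% had it, and among those with a mean of at least 500 the share was 2.47%. A looser search, for a run of at least 8 bases that are each C or T on the gene's strand within 25 bases of the start on either side, found 34 of the 63 genes, or 54%, against 19.2% of all windows. The windows of Rpl39 and Rps9 hold such a run but no tract at the annotated base. The annotated start was that of the deposited transcript in 48 of the 63 genes; in Rps10 the 2 lay 237 bases apart. A match here describes letters at an annotated position and is not a measured start site.

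No ribosomal protein gene passed the test between the groups. With limma-trend on log2(value + 1) and Benjamini-Hochberg adjustment over 23116 genes, 0 of 84 genes had an adjusted p under 0.05, where the background was 0% of all genes tested and the smallest adjusted p of any gene was 0.759. At an unadjusted p under 0.05, 3 of the 84 were higher in the KO-labelled libraries and 0 were lower, where 1.92% of all genes tested were higher and 3.52% lower. The 3 were Rplp1, Rps10 and Rps9. With edgeR on the recovered reads, again 0 of the 84 passed, beside 0 of all genes tested. By the same edgeR fit, 7 had an unadjusted p under 0.05, where 5.2% of all genes tested had one. Limma without a trend called 0 as well, beside 0.489% of all genes called higher and 2.25% lower. DESeq2 called 2 genes, Rplp1 and Rps10, both higher, beside 1.77% of all genes called higher and 4.35% lower. In the authors' deposited table, 1 member had a q-value under 0.05, Rplp1, beside 1.24% of all genes higher there and 3.23% lower.

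The direction was shared by most of the family without a call for nearly all of its genes. The log2 difference, taken between group means of log2(value + 1), was above 0 for 71 of the 84 genes, 41 of 50 in the large and 30 of 34 in the small subunit, where it was above 0 for 45.1% of all genes tested. In what follows, a gene counted as higher or lower has a log2 difference above or below 0. It was above 0 for 60 of 84 after centring on the well-covered genes (mean of at least 500) and for 62 after quantile normalization. Without labelled KO 2 the count was 52 of 84. The comparison with well-covered genes is closer, since 58.8% of the 7431 genes averaging at least 500 were higher. The median log2 difference was 0.20 over the family, with quartiles of 0.05 and 0.31. Over all genes tested it was -0.09, and over the 7431 well-covered genes 0.07. Both KO-labelled libraries lay above both WT libraries for 29 of the 84 genes, or 34.5%, against 14.3% of all genes tested and 22.7% of the well-covered ones. Both lay below for 6, where the background was 21.4% of all genes tested and 12.8% of the well-covered ones. Of these 6, 4 were the low genes Rpl10l, Rpl3l, Rpl22l1 and Rpl32l, and the others were Rpl39 and Rps14, the latter named after its values were seen.

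The medians of the subunits lay close to each other. The median log2 difference was 0.17 for the large subunit, with quartiles of 0.05 and 0.28, and 0.21 for the small subunit, with quartiles of 0.08 and 0.36. The large minus small difference of these medians was -0.04. Without labelled KO 2 the medians were 0.08 and 0.05, and without labelled KO 1 they were 0.22 and 0.36. Without the 4 low genes, which are all of the large subunit, its median was 0.19. The range over the 46 better covered large subunit genes was -0.48 for Rpl39 to 0.66 for Rpl23, and over the 34 small subunit genes -0.30 for Rps27a to 0.52 for Rps10. In ratios, the large subunit genes ran from 0.714 to 1.53 and the small subunit genes from 0.867 to 1.43. Among these 80 genes, 0 differed by more than 1 on the log2 scale, against 2.01% of the 7431 well-covered genes. Their standard errors lay between 0.12 and 0.56, with a median of 0.19.

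**Figure D1:**
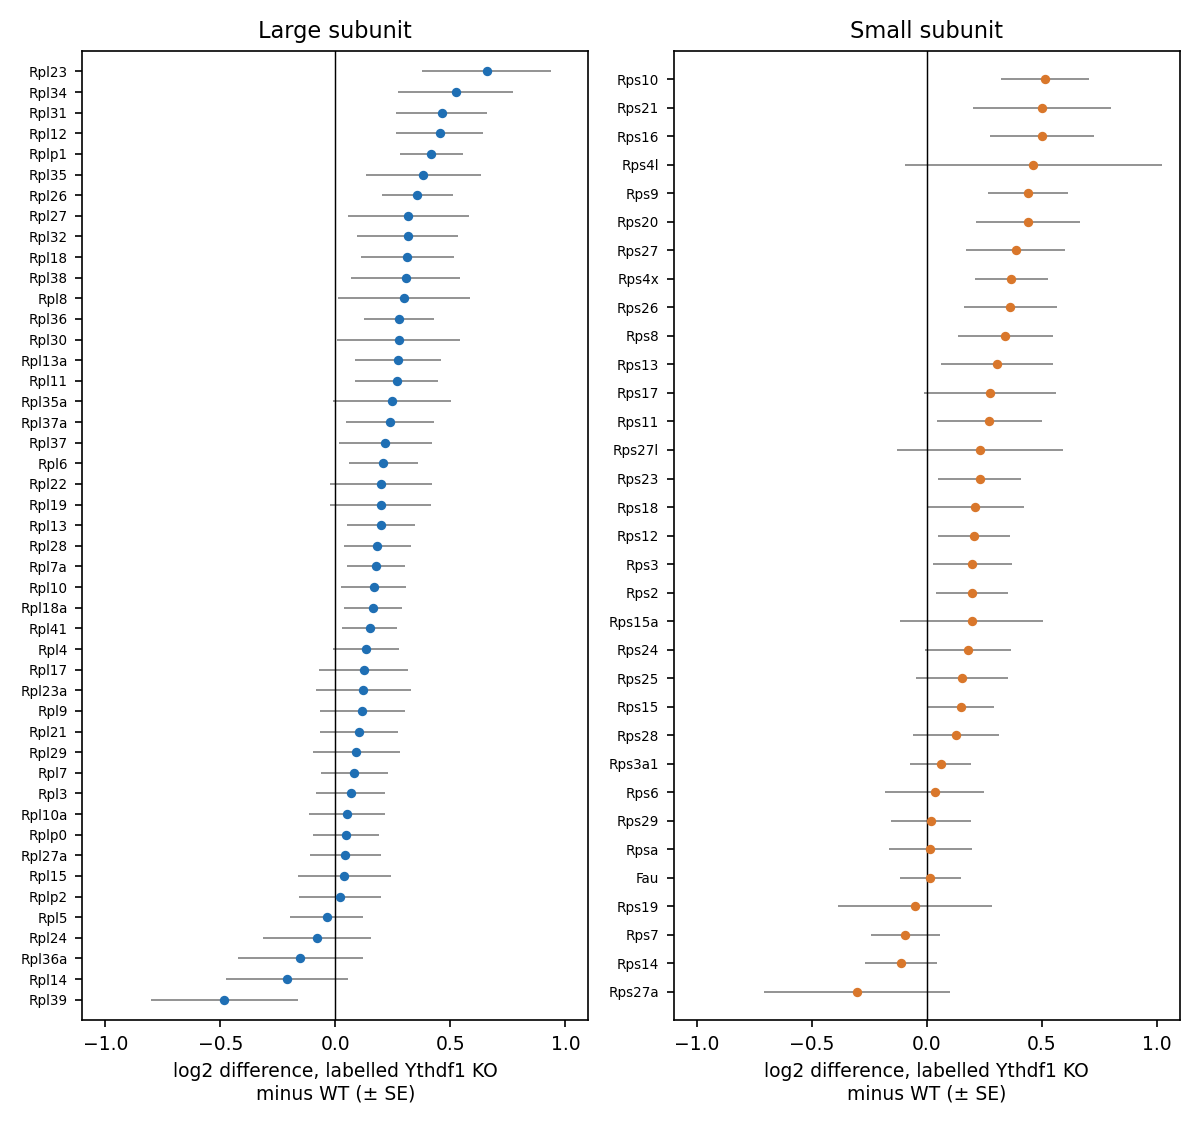
Log2 difference with its standard error (horizontal axis, KO-labelled libraries minus WT, on log2 of value + 1) for the 46 large and all but 1 of the 34 small subunit genes with a mean of at least 500, ordered by size within each subunit. Most points lie to the right of 0 with bars that reach near or past it, from Rpl39 at -0.48 and Rps27a at -0.30 to Rpl23 at 0.66 and Rps10 at 0.52.

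The family's share of normalised reads was taken over the most abundant transcript of each gene, not over all listed transcripts. It was 1.67% in WT 1, 1.75% in WT 2, 1.76% in labelled KO 1 and 2.00% in labelled KO 2. The first 3 libraries lay close together and labelled KO 2 stood above them. The large subunit took 1.06%, 1.1%, 1.12% and 1.25% in the same order, and the small subunit 0.604%, 0.647%, 0.641% and 0.745%. The ratio of large to small was 1.76, 1.70, 1.74 and 1.68, a ratio of reads not corrected for transcript length. It was lower in the second library of each group.

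In single library pairs, ribosomal protein genes differed within groups by as much as between some libraries of different groups. The median difference over the 84 genes was 0.12 for labelled KO 1 over WT 1 and -0.03 for labelled KO 1 over WT 2. For labelled KO 2 it was 0.32 over WT 1 and 0.21 over WT 2. Inside a group it was 0.14 for WT 2 over WT 1 and 0.18 for labelled KO 2 over KO 1, so pairs with the same label differed as much as some pairs with different labels. Well-covered genes gave medians of 0.03 to 0.11 in the 4 between-group pairs and 0.04 in both within-group pairs. Labelled KO 2 over KO 1 had 38 of 50 large and 31 of 34 small subunit genes higher, and labelled KO 1 over WT 2 had 23 of 50 and 16 of 34.

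By subunit, labelled KO 2 over WT 1 gave the widest gap, with medians of 0.26 for the large and 0.42 for the small subunit. In the pair labelled KO 1 over WT 1, they were 0.12 in both subunits. Labelled KO 1 over WT 2 gave -0.05 and -0.01, and labelled KO 2 over WT 2 gave 0.21 and 0.22. The large minus small gap thus ran from -0.15 to 0.01 over these 4 pairs. Over the 80 better covered genes, the median size of the difference, sign aside, was 0.21 within WT, 0.20 within the KO-labelled libraries and 0.21 between the groups. The same medians over the 7431 well-covered genes were 0.28, 0.32 and 0.23. In both sets the values within a group compare 2 single libraries. The value between groups compares means over 2 libraries, which vary less. Equal sizes here therefore do not mean equal spread within and between groups.

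**Figure D2:**
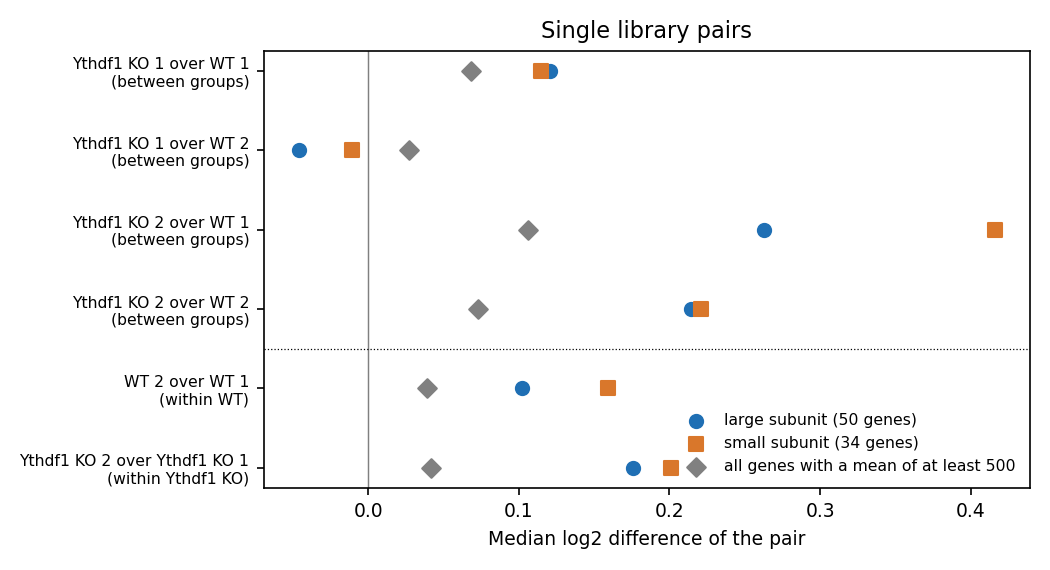
Median log2 difference (horizontal axis) of the large subunit, the small subunit and all genes with a mean of at least 500, for the 4 pairs between groups and, under the dotted line, the 2 pairs within a group. The within-group medians of the subunits, 0.10 to 0.20, overlap the range between groups of -0.05 to 0.42.

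Labelled KO 2 held the highest of the 4 values for 62 of the 84 genes, or 73.8%, against 34.9% of well-covered genes. By subunit this was 34 of 50 large and 28 of 34 small. WT 1 held the lowest value for 44 genes (52.4%), labelled KO 1 for 21 (25%), WT 2 for 16 (19%) and labelled KO 2 for 3 (3.57%). Among well-covered genes the shares in the same order were 30.3%, 22%, 25% and 22.7%. Rpl10l, at 0 in both KO-labelled libraries, was counted for labelled KO 1. The 3 genes of labelled KO 2 were among the low genes, since it was lowest for 0 of the 80 better covered ones. Relative to each gene's own mean, the median of the large subunit was -0.11 in WT 1, -0.02 in WT 2, 0.00 in labelled KO 1 and 0.19 in labelled KO 2. The small subunit gave -0.15, 0.00, -0.02 and 0.25. WT 1 was thus low and labelled KO 2 high, with the other 2 libraries between them and level with each other.

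**Figure D3:**
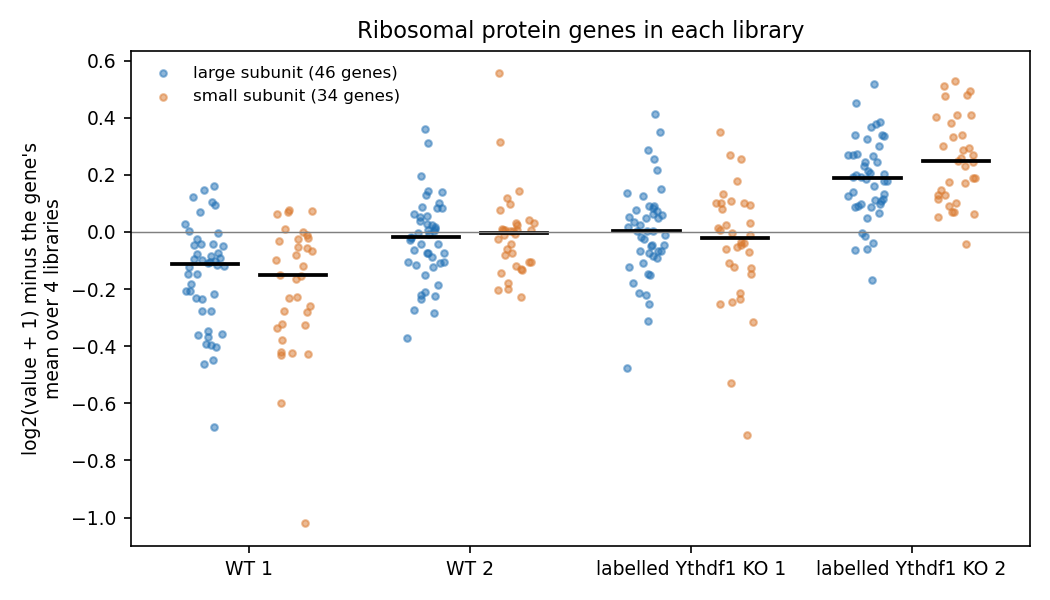
Log2(value + 1) of each ribosomal protein gene minus its mean over the 4 libraries (vertical axis), by library, with black lines at the medians of 46 large and 34 small subunit genes averaging 500 or more. The medians are -0.11 and -0.15 in WT 1 and 0.19 and 0.25 in labelled KO 2, and near 0 in the other 2.

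The summed value of 8 markers of cycling crypt cells had the same order of libraries as the family's share of reads. It was 11046 in WT 1, 13653 in WT 2, 15112 in labelled KO 1 and 17926 in labelled KO 2, and 7 of 8 were higher in the KO-labelled group. Most of this sum was Mki67, a marker of dividing cells, at 6489, 8244, 9025 and 11002. The other 7 markers did not follow that order singly, as with the replication clamp gene Pcna at 869, 839, 852.2 and 474.8 and the topoisomerase gene Top2a at 1125, 2304, 2316 and 2233. Reads per library were ordered the same way, from 21686140 to 30951138. The sum over leukocyte markers went the opposite way, 1555, 1210, 966.6 and 656.8. Of these markers 9 of 10 were lower, where 12694 of all 23116 genes tested were lower. Lyz2, at 0 in both KO-labelled libraries, passed the filter on low values only through WT. That it was lower was thus fixed by the filter. Cd79a was at 0 in WT 1 and labelled KO 1. The part of crypt cells, depth and leukocytes in the family's differences was not tested.

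Of the 3 stalk proteins, which stand out from the large subunit and recruit the factors that drive elongation, 1 lay above both WT libraries. Among the well-covered genes 22.7% did so, and 3 genes are too few to set apart from that background. Rplp1 (chr9:61913283-61914510, minus strand) was at 7446 and 7701 in WT and 9707 and 10541 in the KO-labelled libraries. The groups did not overlap, with means ± SD over 2 libraries of 7574 ± 181 and 10124 ± 590. The ratio was 1.34, with a log2 difference of 0.42 ± 0.14 (SE) and a limma-trend adjusted p of 0.759. DESeq2 gave an adjusted p of 0.00665 on the same reads, and the authors' deposited table a log2 fold change of 0.42 with a q-value of 0.0124. Rplp0, the stalk base, was at 17729, 17233, 16049 and 20294 in WT 1, WT 2, labelled KO 1 and labelled KO 2. Rplp2, the partner of Rplp1, was at 3915, 3390, 3559 and 3839. Both overlapped between groups, with log2 differences of 0.05 ± 0.14 and 0.02 ± 0.18 that turned to -0.03 and -0.05 when centred on well-covered genes. Without labelled KO 2 these were -0.12 and -0.03, and without WT 2 that of Rplp2 was -0.08. Rpl12, which sits at the base of the stalk, did not overlap, its WT values of 3752 and 4429 lying below 5024 and 6200, a ratio of 1.37 and a log2 difference of 0.45 ± 0.19, which was 0.30 without labelled KO 2.

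The exit tunnel group, whose proteins line or surround the tunnel opening, had 8 of 9 genes higher, with 3 above both WT libraries, 1 below and a median log2 difference of 0.20. Among the well-covered genes, 58.8% were higher, 22.7% above and 12.8% below both WT libraries, so these 9 genes give counts of non-overlap near that background. Rpl26 was at 5978 and 5235 in WT and 7358 and 6974 in the KO-labelled libraries, a ratio of 1.28. Rpl31, a protein at the tunnel's rim, was at 3599 and 2968 against 4090 and 4953, a ratio of 1.38. In both genes the groups did not overlap, and the log2 differences were 0.36 ± 0.15 and 0.46 ± 0.20. Rpl22, which is also known to bind RNA outside the ribosome, was the third without overlap, at 1619 and 1643 against 1753 and 1998.

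Rpl39 (chrX:37082518-37085222, minus strand), a very small protein of the tunnel wall, was the 1 gene of this group below both WT libraries. It was at 775.5 and 913.7 in WT and 573 and 633.6 in the KO-labelled libraries. Both of the latter lay below both WT libraries, with means ± SD over 2 libraries of 844.6 ± 97.7 and 603.3 ± 42.9. The ratio was 0.714 and the log2 difference -0.48 ± 0.32, which did not pass the test. The other 5 genes overlapped between groups. Rpl4, whose long loop reaches into the tunnel, was at 11668, 12316, 11935 and 14489 in WT 1, WT 2, labelled KO 1 and labelled KO 2, and Rpl17 at 7181, 5277, 7010 and 6412. Rpl19 was at 4903, 7379, 6831 and 6969, with WT 1 alone low. Rpl23a, a docking site for factors that meet the new protein, was at 7578, 7441, 6752 and 9892. Rpl35 was at 3102, 4150, 3910 and 5597, highest in labelled KO 2.

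Among the other large subunit genes with the smallest unadjusted p, Rpl23, a protein of the face that meets the small subunit, was at 1554 and 2542 in WT and 3325 and 2958 in the KO-labelled libraries. Its groups did not overlap, with a ratio of 1.53 and a log2 difference of 0.66 ± 0.28, and WT 1 was the low library. Without WT 1 the difference was 0.30, and without WT 2 it was 1.01. Rpl5 and Rpl11 form, with a small ribosomal RNA, the particle that can bind Mdm2 and so stabilise p53. Rpl11 was at 3206 and 3133 against 3558 and 4080, without overlap, at a log2 difference of 0.27 ± 0.18, which was 0.17 without labelled KO 2. Rpl5 was at 5920, 6995, 6457 and 6090, with overlap and a difference of -0.04 ± 0.16, which was 0.08 without WT 2. Neither passed the test, and the difference between these partners was not tested. Rpl14 overlapped at 4846, 4561, 3142 and 5257, with labelled KO 1 low, and its log2 difference of -0.21 was 0.16 without that library.

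The large subunit genes with the highest normalised read counts besides Rplp0 were Rpl41, Rpl4, Rpl28 and Rpl13. These are read counts not divided by length, so their order is not one of mRNA level. Rpl41, the smallest ribosomal protein, was at 12013 and 12036 in WT and 13241 and 13450 in the other group, without overlap and with a log2 difference of 0.15 ± 0.12. Rpl13 was at 10401 and 10747 against 10957 and 13417, also without overlap. Rpl28 was at 12485, 10573, 12267 and 13857.

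In the small subunit, Rps10 (chr17:27630420-27635481, minus strand) and Rps9 (chr7:3703954-3706897, plus strand) had the smallest unadjusted p. Rps10, a protein of the subunit's head that is ubiquitinated on collided ribosomes, was at 3071 and 3430 in WT and 4178 and 5148 in the KO-labelled libraries. The groups did not overlap, at 3251 ± 253 and 4663 ± 686 (SD over 2 libraries). Its ratio was 1.43 and its log2 difference 0.52 ± 0.19, with an adjusted p of 0.759 by limma-trend and 0.031 by DESeq2, and a q-value of 0.0562 in the authors' deposited table. Rps9, which takes part in the accuracy of decoding, was at 4465 and 5141 against 7122 and 5951, a ratio of 1.36 and a log2 difference of 0.44 ± 0.17. Labelled KO 1, not KO 2, was the highest library for Rps9, unlike most of the family.

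The genes at the mRNA entry, Rps2, Rps3 and Fau, were all higher but overlapped between groups, and Fau turned to -0.06 when centred on well-covered genes. Rps2 was at 9239, 8681, 9190 and 11468, and Rps3, which also acts in DNA repair, at 4537, 5427, 5399 and 6002. Fau, made as a fusion to a ubiquitin-like protein, was at 8880, 9022, 8723 and 9392, a difference of 0.02 ± 0.13 that was -0.04 without labelled KO 2. Rps27a, made as a fusion to ubiquitin, was at 1425, 1786, 876.4 and 1907, with labelled KO 1 far below the rest. Its log2 difference was -0.30 ± 0.40, and 0.26 without labelled KO 1.

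Rps6, the substrate by which S6 kinase activity is commonly read, was at 5298, 4689, 4286 and 6074, with overlap and a difference of 0.03 ± 0.21, which was -0.04 when centred on well-covered genes and -0.22 without labelled KO 2. Rpsa, also known as the laminin receptor, was at 9058, 9701, 8131 and 11053, and Rps3a1 at 8259, 8675, 8584 and 9071. Their groups overlapped as well. Rps14 was at 5318 and 6016 against 5185 and 5285, a ratio of 0.924.

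Genes mutated in Diamond-Blackfan anaemia, a failure of red cell formation from too little ribosomal protein, were taken as a chosen list of 16. This list need not be complete. Of the 16 genes, 13 were higher, 5 (31.2%) lay above both WT libraries and 0 below, with a median log2 difference of 0.26. Among the well-covered genes, 22.7% lay above and 12.8% below. Rps10 was the single one of the 16 at an unadjusted p under 0.05, and 0 passed the limma-trend test. The 3 with a log2 difference below 0 were Rpl5, Rps7 and Rps19, at -0.04, -0.09 and -0.05. For Rps19 the means of the unlogged values ran the other way, 3409 in WT and 3490 in the KO-labelled libraries.

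**Figure D4:**
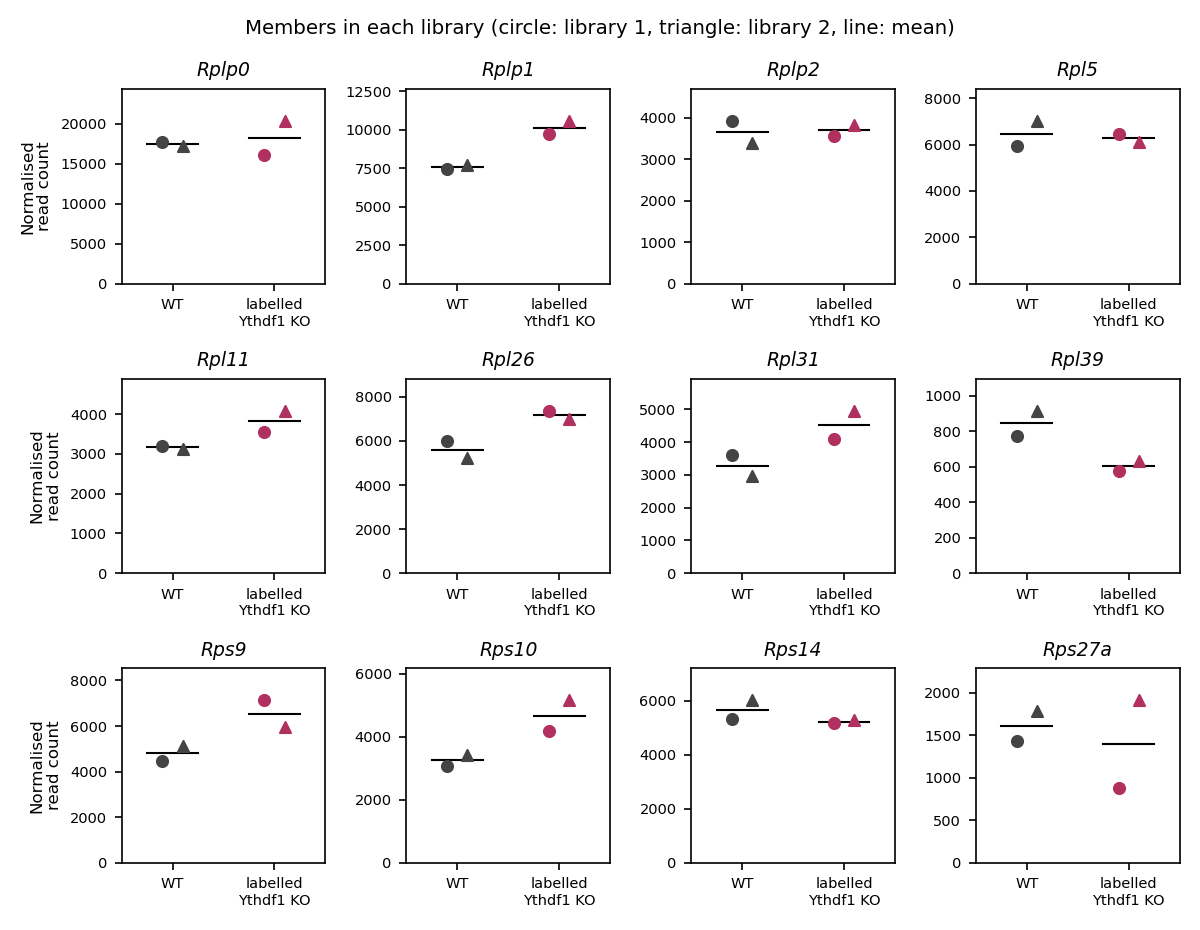
Normalised read count (vertical axis from 0, scaled per gene) of 12 ribosomal protein genes in the WT libraries and those labelled Ythdf1 KO, with circles for library 1, triangles for library 2 and lines at the mean of 2. Rplp1, Rps9 and Rps10 lie above WT without overlap, Rpl39 and Rps14 below, and Rplp0, Rplp2, Rpl5 and Rps27a overlap.

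Paralogs of core ribosomal proteins were the low end of the family. Rpl22l1, a paralog of Rpl22 whose level Rpl22 is known to restrain, was at 216.4 and 336.2 in WT and 179.4 and 132.3 in the KO-labelled libraries, a ratio of 0.564 without overlap. It took 11.8% and 17.0% of the pair's reads in WT and 9.28% and 6.21% in the other group. The Wilson 95% intervals, which cover counting error only, were 10.3 to 13.5%, 15.4 to 18.7%, 8.09 to 10.6% and 5.34 to 7.21%. The share in labelled KO 2 was the lowest, and neither Rpl22 nor Rpl22l1 passed the test. These shares are not corrected for length.

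Rps27l, a known p53 target, was at 706.7, 743.1, 662.2 and 1094, beside Rps27 at 2235, 2884, 3112 and 3543. Rps27 did not overlap between groups and Rps27l did, with labelled KO 2 alone high. Rps4x was at 5673 and 6892 in WT and 8048 and 8090 in the other group, a ratio of 1.28 without overlap. Rps4l was at 313.3, 935.9, 697.1 and 801.5, low in WT 1 alone. Since near-identical copies may share reads, the split within such pairs is uncertain.

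Rpl10l, a copy of Rpl10 known from testis, was at 13.53 and 90.87 in WT, while both KO-labelled libraries stood at 0. It passed the filter on low values only through the WT libraries, so that it lay below them was fixed by the filter, and its place among the 6 such genes is no support for a difference. Against a floor of 3 reads per library, WT was at least 19.4-fold higher, a bound that is 5.02-fold on WT 1 alone. Its parent Rpl10 was at 7200, 7875, 8267 and 8637. Rpl3l, the copy of Rpl3 known from muscle, was at 30.43, 66.63, 28.12 and 0, beside Rpl3 at 7219, 8472, 7874 and 8515. Rpl32l was at 343.8, 128.2, 101.8 and 40.53. These low genes did not pass the test either.

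Genes with and without the TOP start had medians that lay close together. The 15 genes with it had a median log2 difference of 0.20 and 13 of 15 were higher. The 48 with a window and without it had a median of 0.20, with 39 of 48 higher. Across all 426 tested genes with such a start, the median was -0.09. By library pair, the genes with it gave -0.03 for labelled KO 1 over WT 1 and 0.41 for labelled KO 2 over WT 1, against 0.13 and 0.30 for those without.

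**Figure D5:**
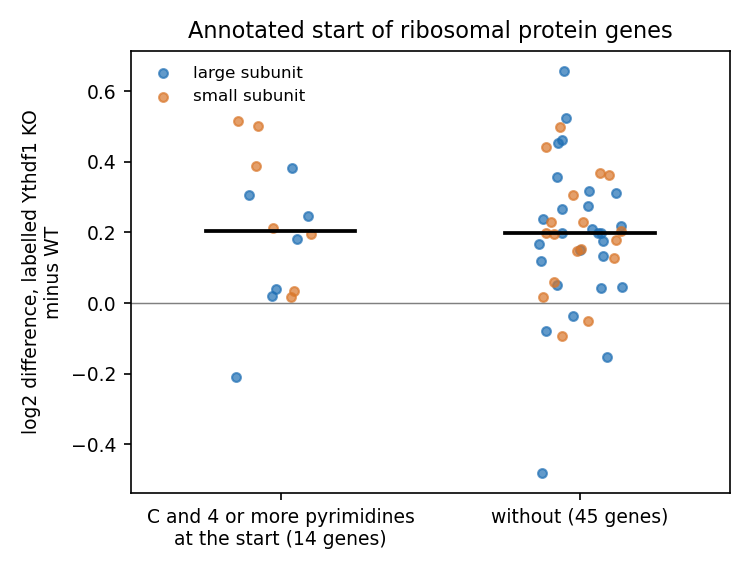
Log2 difference (vertical axis, KO-labelled libraries minus WT) of ribosomal protein genes with a mean of at least 500, split by whether a C and at least 4 pyrimidines stand at the annotated start, with lines at the medians. The 14 genes with it and the 45 without it have medians of 0.20 and 0.20 and overlap over nearly the whole range.

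Outside the family, related genes gave the following counts. All 4 related genes that the symbol rule missed or barred, Rack1 and Rpl7l1 among them, were higher, and 3 lay above both WT libraries. Rpl7l1 was at 383.2 and 390.7 in WT and 686.4 and 1026 in the other group, a log2 difference of 1.12 ± 0.38 that limma-trend did not call and DESeq2 did. Of 17 other mRNAs known for TOP tracts, 12 were higher and 4 above both WT libraries, with a median of 0.10. Of 16 genes of mTOR and Larp1 control, 11 were higher, with a median of 0.06. Among them Rps6kb1, which encodes the kinase of Rps6, was at 277.3 and 496.7 against 921 and 747.8, a log2 difference of 1.159 ± 0.430. Tsc1, an inhibitor of mTOR, was at 1639 and 1820 against 1311 and 1245, a difference of -0.435 ± 0.233. Both were named for a small unadjusted p within the list. Rps6kb2, which encodes another kinase of Rps6, was lower with overlap, at a difference of -0.297 ± 0.354. The activity of mTOR was not tested. Of 10 chaperones and importers of ribosomal proteins, 7 were higher, with a median of 0.15, and of 6 genes of the p53 arm, 4, with a median of 0.17. The 77 mitochondrial ribosomal protein genes had 42 higher, 15 above (19.5%) and 13 below (16.9%) both WT libraries, and a median of 0.03. For all these lists the background is 45.1% higher, 14.3% above and 21.4% below over all genes tested, and 58.8%, 22.7% and 12.8% over the well-covered ones. In limma-trend, 0 genes of these lists passed; at an unadjusted p under 0.05, Rpl7l1, Rps6kb1 and 1 mitochondrial gene were higher.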

How the data were processed

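The deposited expression signal is, per the file headers, a value per RefSeq transcript and library. All values were whole multiples, within 0.001, of the value of 1 read (1.13, 1.01, 0.969 and 0.827 in WT 1, WT 2, labelled KO 1 and labelled KO 2), so the authors' values are read counts divided by a size factor, not by length. Each transcript row of the deposited table also holds the authors' log2 fold change, with its p-value and q-value. The submitters' processing notes name mm10, deepTools 3.3.0, HOMER 4.10, MACS2 2.1.0, SAMtools 1.3.1, Bowtie2 2.2.5 and CASAVA 1.8. Counting program and use of strand were not given in the sources used here, so overlapping or near-identical genes may share reads.

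Genes reaching a value of 1 in 2 or more libraries entered the fit (23116, all 84 ribosomal protein genes among them). The plan had not listed this unit by name; the values were handled as normalised values, and log2(value + 1) was fitted with robust limma-trend 3.58.1 in R 4.3.3, Benjamini-Hochberg adjusted over all genes tested. Fold changes on this scale depend on the pseudocount for low genes. edgeR 4.0.16 and DESeq2 1.42.0 were run on the recovered reads as alternatives, and scripts were tested on simulated data. With 2 libraries against 2, an exact permutation test of a single value cannot go below p = 0.333, so none is given.

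Members and lists were chosen with earlier results of these data known. Values are given for the 5 genes of each subunit with the highest deposited mean, the 6 with the smallest unadjusted p in each direction, the groups by role, paralogs, and at most 3 genes of each outside list. Rpl39l has no value and was not analysed here. Over 7431 well-covered genes, same-numbered libraries of the groups did not deviate together (correlation 0.0225), which does not exclude shared handling. The labels do not state a pairing, so numbers were not used as pairs in the main fit. Columns of per-sample values left unused numbered 0. A few genes covered by these rules are not reported here.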

Additional observations from a re-analysis of the deposited data

How the results depend on the processing

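With the replicate number as a block, limma called 0 genes, 1760 had an unadjusted p under 0.05, 6 of them ribosomal protein genes, and the block changed no call. The labels do not say whether the same numbers pair libraries. In this family library 2 was higher than library 1 in both groups, at medians of 0.140 in WT and 0.185 in the KO-labelled libraries. Called genes of all genes tested numbered 0 in the main analysis and 0 to 36 when 1 library was left out, the 36 without labelled KO 1, and 0 ribosomal protein genes were among the calls of any such fit. DESeq2 called 1431 genes, 2 of them ribosomal proteins, both named above, and 1 gene of the outside lists, Rpl7l1. Limma without a trend called 632 genes and 0 ribosomal proteins. The cause of these differences was not tested.

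Leaving out 1 library gave medians of 0.051 (without labelled KO 2) to 0.364 (without labelled KO 1) for the small subunit and a large minus small gap of -0.143 to 0.023, positive without labelled KO 2. The groups did not overlap for 46 to 74 genes, where fewer libraries make this easier. Without labelled KO 1, 68 lay above and 6 below (31.9% and 38.7% of all genes tested), and without labelled KO 2, 31 above and 24 below (31.4% and 39.1%). Without WT 1, 37 lay above and 9 below (29% and 34.5%), and without WT 2, 52 and 9 (30.3% and 35.1%). The family's share of reads was 0.167 percentage points higher in the KO-labelled libraries, 0.046 without labelled KO 2, 0.285 without labelled KO 1 and 0.074 with summed transcripts.

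Centred on the well-covered genes, the log2 difference turned to -0.057 for Fau and Rpsa, -0.052 for Rplp2, -0.039 for Rps6, -0.027 for Rplp0, -0.013 for Rps3a1 and -0.007 for Rpl3. Quantile normalization gave -0.069 for Rplp2, -0.062 for Rpsa, -0.052 for Rps6, -0.045 for Fau and -0.004 for Rps3a1. Among the ribosomal protein genes chosen by the naming rule, leaving out 1 library turned the direction of 15, with ranges of -0.123 to 0.215 for Rplp0, -0.083 to 0.125 for Rplp2, -0.006 to 0.273 for Rpl4, -0.158 to 0.083 for Rpl5, -0.581 to 0.161 for Rpl14, -0.099 to 0.345 for Rpl17, -0.097 to 0.493 for Rpl19, -0.153 to 0.398 for Rpl23a, -0.049 to 0.182 for Rpl3, -0.037 to 0.069 for Fau, -0.205 to 0.238 for Rpsa, -0.218 to 0.285 for Rps6, -0.863 to 0.257 for Rps27a, -0.130 to 0.593 for Rps27l and -0.324 to 1.252 for Rps4l. Of the other gene values, 601 kept their direction and side of the threshold. Low genes rest on few reads, down to 0 for Rpl10l and Rpl3l.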
